A study of Mus musculus with 6 samples.

Results

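The genes of sterol and fatty acid synthesis were examined in the brains of mice with an activated human SRY transgene. The set was a list of 40 gene symbols, drawn up with earlier results of these data known, so that a direction shared by its members is not independent evidence. It covered the enzymes from acetyl-CoA to cholesterol, the sterol regulatory element binding proteins (SREBPs) and their control proteins, carriers and exporters of cholesterol, and the enzymes that supply, elongate and desaturate fatty acids. Of the 40 symbols, 35 were present in the array table with 50 probes, and 42 probes of 32 symbols were bright enough to be tested. The whole table held 25697 probes under 18138 symbols, of which 14215 probes of 10548 symbols were tested. No probe was listed under Hmgcs1, Mvk, Fdft1, Acaca or Me1. Me1 has an older symbol, Mod1, whose probe lay below background on all 6 arrays.

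Whole brain of male mice of the FVB strain (FVB/N in the study's methods) at postnatal day 6 was hybridized to Illumina bead arrays, 3 for hSRY-OFF and 3 for hSRY-ON mice, to ask which transcripts differ when human SRY is ectopically active. Both groups carried a single copy of the Signalox-hSRY transgene at the H11 locus of chromosome 11. In hSRY-OFF mice the transgene was unrecombined, so the ubiquitous CAG promoter drove the red fluorescent protein DsRed2. In hSRY-ON mice Cre recombinase from Ddx4-Cre oocytes had removed the DsRed2 cassette, and the same promoter drove FLAG-tagged human SRY together with EGFP. The hSRY-ON mice chosen for the arrays had not inherited the Ddx4-Cre transgene itself. The transgene therefore stood at 1 integration site and its promoter was not restricted to any cell type. The array reads mouse transcripts, and the level of the human transgene was not analysed here. The study reports that hSRY-ON pups had minimal suckling activity, lacked milk in the stomach, grew more slowly and had smaller brains than controls. It chose day 6 as an age when growth was already retarded and some pups had died. Feeding and growth thus differed along with SRY, and their part in the differences was not tested. The median intensity of the arrays was 200 to 220, and 13816 to 14377 probes were detected on each. Of the 8 neuron marker symbols in the table, 6 had a tested probe and the probes of Snap25 and Nefl were detected on no array. The summed signal of the 7 tested probes ranged from 67664 to 72959 in hSRY-OFF and from 67817 to 72245 in hSRY-ON, with none called, and the lowest p was that of Slc17a7, a vesicular glutamate transporter, at a log2 fold change of -0.63 (adjusted p = 0.0595, no overlap).

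Cholesterol is made from acetyl-CoA through mevalonate, farnesyl diphosphate, squalene and lanosterol. Plasma cholesterol hardly crosses the blood-brain barrier, so the brain makes its own, and in the postnatal weeks most of it enters the growing myelin of oligodendrocytes. When membrane sterol is low, the escort protein SCAP carries SREBP to the Golgi for cleavage, and the released factor activates sterol and fatty acid genes. INSIG proteins hold SCAP in the endoplasmic reticulum when sterol is plentiful. The liver X receptors, nuclear receptors for oxidized sterols, activate the exporters Abca1 and Abcg1 and also Srebf1.

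Most of the tested probes differed slightly and in one direction. Of the 42 tested probes, 35 had a lower mean in hSRY-ON than in hSRY-OFF and 7 a higher one, whereas 48.9% of all tested probes were lower. The median log2 fold change (hSRY-ON minus hSRY-OFF) over the 42 probes was -0.25, compared with 0.0048 over all tested probes. Only 3 probes were called, at an adjusted p under 0.05 in the limma fit, against 2.17% of all tested probes. Scd1 and Srebf1 fell and Abcg1 rose. At an unadjusted p under 0.05 there were 24 probes, 23 lower and 1 higher, against 20.9% of all probes, 10.9% lower and 10.1% higher. In 22 probes the groups did not overlap, 21 with all hSRY-ON arrays below all hSRY-OFF arrays and 1 above, against 27.7% of all probes, 14.2% below and 13.5% above. Brain RNA is a mixture, and fewer cells of a type cannot be told apart from less RNA per cell.

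**Figure D1:**
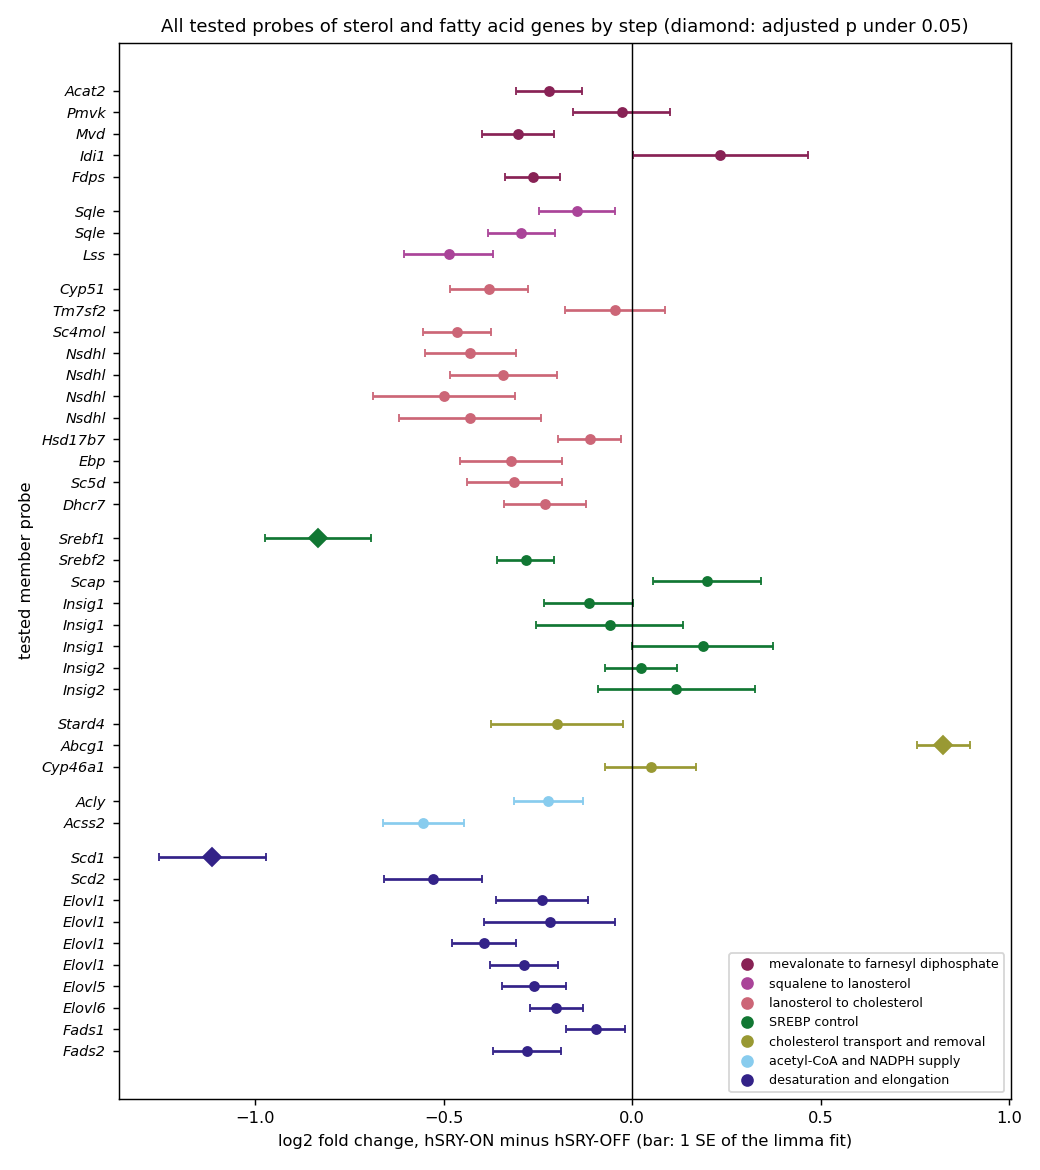
Log2 fold change (hSRY-ON minus hSRY-OFF, x axis) of each of the 42 tested probes, one row a probe and grouped by pathway step, with bars of 1 SE of the limma fit. All probes of the lanosterol to cholesterol step and of the fatty acid steps lie left of 0, the SREBP control probes lie on both sides, and the called probes (diamonds) are Srebf1, Abcg1 and Scd1.

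The number of calls changed with the array set, the background correction and the model of the spread, over the whole array as among these genes. Without hSRY-OFF array 1, 2 or 3 or hSRY-ON array 1 or 2 no member probe was called, and 0, 1, 0, 1 and 0 of all tested probes were called in these 5 fits, while 5 were called without hSRY-ON array 3, against 2.98% of all probes. Without background correction 17 member probes were called, against 9.26% of all probes, and with a prior on the spread that varied with signal and was robust (limma's trend and robust options) 19 were called, against 10.2%.

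The promoters shown here belong to the gene with the lowest p in its step, for the 4 steps in which that gene had a sequence, because the elements near such start sites are known to work with SREBP. SREBP alone activates weakly and acts with factors that bind CCAAT boxes and GC boxes. Each sequence is the 250 bases before an annotated start site, 5′ to 3′ on the gene's own strand, from RefSeq on assembly GRCm38.p6. Capitals mark the letters of a CCAAT box, which read ATTGG where the box is on the opposite strand. Sc4mol, now named Msmo1, held 3 boxes, and Lss and Acss2 held 1 each. Of the 3 windows of Srebf1, for alternative start sites, the first and last held 1 box and the middle one none.
Lss, chr10:76531355-76531604, plus strand: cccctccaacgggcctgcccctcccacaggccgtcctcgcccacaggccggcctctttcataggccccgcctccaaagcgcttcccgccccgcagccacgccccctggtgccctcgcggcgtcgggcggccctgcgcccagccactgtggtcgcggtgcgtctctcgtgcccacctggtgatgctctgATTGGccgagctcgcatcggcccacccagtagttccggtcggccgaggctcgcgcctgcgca
Sc4mol, chr8:64733579-64733828, minus strand: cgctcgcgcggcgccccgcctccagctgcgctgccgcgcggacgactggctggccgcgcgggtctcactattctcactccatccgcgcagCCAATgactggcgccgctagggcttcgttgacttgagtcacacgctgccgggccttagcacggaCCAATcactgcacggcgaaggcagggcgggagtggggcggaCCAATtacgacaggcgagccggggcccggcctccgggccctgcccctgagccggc
Acss2, chr2:155517793-155518042, plus strand: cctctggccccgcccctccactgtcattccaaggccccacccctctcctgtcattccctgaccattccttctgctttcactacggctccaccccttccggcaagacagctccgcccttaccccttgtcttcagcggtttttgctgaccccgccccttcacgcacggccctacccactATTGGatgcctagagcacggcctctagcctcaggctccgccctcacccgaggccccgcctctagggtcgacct
Srebf1, chr11:60222582-60222831, minus strand: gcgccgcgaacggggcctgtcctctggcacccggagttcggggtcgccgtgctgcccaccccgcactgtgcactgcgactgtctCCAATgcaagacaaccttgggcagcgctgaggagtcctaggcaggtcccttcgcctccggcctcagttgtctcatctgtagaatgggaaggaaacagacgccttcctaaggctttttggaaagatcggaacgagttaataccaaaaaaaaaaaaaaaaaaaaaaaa
Srebf1, chr11:60220628-60220877, minus strand: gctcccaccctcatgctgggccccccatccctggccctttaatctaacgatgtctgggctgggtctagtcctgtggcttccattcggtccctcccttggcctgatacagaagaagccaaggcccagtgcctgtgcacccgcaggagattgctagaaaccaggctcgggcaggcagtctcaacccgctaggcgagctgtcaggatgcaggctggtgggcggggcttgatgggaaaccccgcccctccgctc
Srebf1, chr11:60210472-60210721, minus strand: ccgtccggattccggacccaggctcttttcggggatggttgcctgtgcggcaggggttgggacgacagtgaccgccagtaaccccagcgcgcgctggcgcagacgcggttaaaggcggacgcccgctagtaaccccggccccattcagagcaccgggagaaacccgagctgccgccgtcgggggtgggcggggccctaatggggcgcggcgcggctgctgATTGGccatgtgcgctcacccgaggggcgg

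Of the 40 listed genes, 32 had at least 1 promoter sequence, with 42 windows of 300 bases (250 before and 50 after the start site) in all. The 8 genes without a sequence were Abcg1, Fads1, Fdft1, Fdps, Scd1, Scd2, Sqle and Stard4. The motifs were searched on both strands. The CCAAT box (CCAAT) was present in 27 of the 42 windows (64.3%) and in 37.4% of all 32851 mouse promoter windows of the same length. Among the enzymes of sterol synthesis it was found for 15 of 16 genes, among the fatty acid enzymes for 6 of 9. The GC box (GGGCGG) was present in 31 windows (73.8%), compared with 35.7% of all. The median GC content was 62.3% in these windows and 52.7% in all windows, so base composition differed along with the motif shares. A sterol regulatory element spelled TCACNCCAC was in 1 window (2.38%), that of Hmgcs1 at position -137 from its start, compared with 1.24% of all. The core of the SOX and SRY binding motif (AACAAT) was in 1 window (2.38%), that of Pmvk, compared with 10.7% of all. Between different motifs, 1 pair of matches overlapped, a CCAAT box and a GC box. Overlaps within a motif were not counted, and in Fasn the CCAAT boxes at -62 and -59 shared letters. A match of letters does not show binding, and nothing about SRY or SREBP binding was measured.

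**Figure D2:**
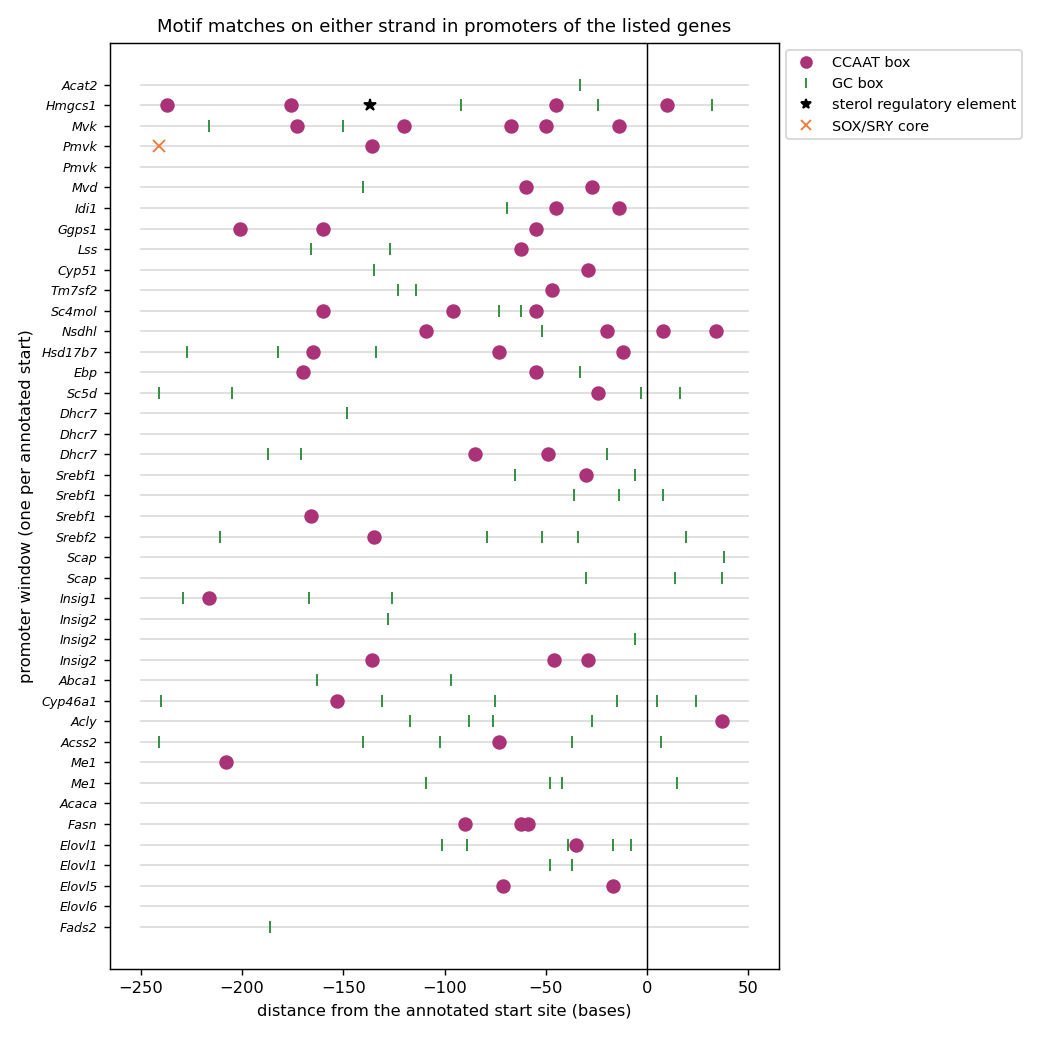
Matches to 4 motifs in the 42 promoter windows of the listed genes, with the distance from the annotated start site in bases on the x axis (start at 0) and one row a window. CCAAT boxes (circles) are spread over most sterol enzyme rows with a median position of -61, GC boxes (ticks) have a median position of -74, and the sterol regulatory element and the SOX/SRY core each appear once.

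The first steps lead from acetyl-CoA to farnesyl diphosphate, the last intermediate shared with non-sterol isoprenoids. Of 5 tested probes, 4 were lower in hSRY-ON and 1 higher, and the median log2 fold change was -0.22. Fdps, the synthase that makes farnesyl diphosphate, read 13.49, 13.46 and 13.43 in hSRY-OFF and 13.17, 13.17 and 13.24 in hSRY-ON (normalized log2 signal, here and below in the order of arrays 1, 2 and 3). The groups did not overlap, and the log2 fold change was -0.26 ± 0.073 (SE, n = 3 each, adjusted p = 0.107). Mvd, the mevalonate diphosphate decarboxylase, read 10.69, 10.69 and 10.91 in hSRY-OFF and 10.44, 10.39 and 10.56 in hSRY-ON. Every hSRY-ON array was below every hSRY-OFF array, a log2 difference of -0.30 ± 0.096 (SE, adjusted p = 0.142). Acat2, the cytosolic thiolase that opens the pathway, had a log2 fold change of -0.22, and Pmvk, the phosphomevalonate kinase, one of -0.03. Idi1, the isomerase of isopentenyl diphosphate, was the probe on the higher side, at 0.23 ± 0.23 (SE, adjusted p = 0.610), and it was detected on only 3 arrays, 1 of them hSRY-OFF. Both probes of Ggps1, on the non-sterol branch, lay below background on all arrays.

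Squalene is then oxidized and folded into lanosterol, the first sterol. All 3 tested probes were lower, with a median log2 fold change of -0.29. Lss, the lanosterol synthase that closes the rings, read 8.88, 8.93 and 8.89 in hSRY-OFF and 8.28, 8.30 and 8.66 in hSRY-ON. The hSRY-OFF arrays were nearly level, hSRY-ON array 3 lay between the other hSRY-ON arrays and the hSRY-OFF arrays, and the groups did not overlap. It differed by -0.49 ± 0.12 on the log2 scale (SE, adjusted p = 0.0819). Sqle, the squalene epoxidase and a rate-controlling enzyme, read 12.97, 12.96 and 12.88 in hSRY-OFF and 12.66, 12.52 and 12.74 in hSRY-ON on its brighter probe. These arrays did not overlap either (log2 fold change -0.29 ± 0.089, SE, adjusted p = 0.126), and the other Sqle probe had a log2 fold change of -0.15.

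The 8 enzymes that turn lanosterol into cholesterol had 11 tested probes, and every one had a lower mean in hSRY-ON. Their median log2 fold change was -0.34. Sc4mol, the sterol C4-methyl oxidase, read 11.96, 11.96 and 12.09 in hSRY-OFF and 11.63, 11.42 and 11.57 in hSRY-ON. Its groups lay clear of each other, and its log2 fold change of -0.47 ± 0.090 (SE) missed the threshold, at an adjusted p of 0.0513. Cyp51, the lanosterol demethylase, read 11.17, 11.37 and 11.31 in hSRY-OFF and 10.81, 10.83 and 11.07 in hSRY-ON, with no overlap (log2 fold change -0.38 ± 0.10, SE, adjusted p = 0.104). Nsdhl, the dehydrogenase that acts after Sc4mol, was read by 4 probes at log2 fold changes from -0.50 to -0.34. The isomerase Ebp was at -0.32, the lathosterol oxidase Sc5d at -0.31 and Dhcr7, the reductase of the last step of one branch, at -0.23. Hsd17b7 and Tm7sf2, both reductases of intermediate steps, were nearest to 0, at -0.11 and -0.05.

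Over the 3 sterol steps together, 18 of 19 probes were lower in hSRY-ON. Of these, 12 were at an unadjusted p under 0.05 (10.9% of all tested probes were so and lower). There were 10 without overlap (14.2% of all were so and lower), and none was called (2.17% of all, in either direction). The median log2 fold change was -0.30. On each array the deviation of a probe was taken from its hSRY-OFF mean, and the median over the 19 probes came to -0.29, -0.42 and -0.19 for hSRY-ON arrays 1, 2 and 3. Of the 19 probes, 17, 18 and 16 were below their hSRY-OFF mean on these arrays. All 3 hSRY-ON brains thus deviated downward, array 2 most and array 3 least. Levels summed on the linear scale give more weight to bright probes. On that scale the mevalonate step, which overlapped as a mean of log2 signals, ran from 17796 to 17948 in hSRY-OFF and from 14417 to 15773 in hSRY-ON. The SD of a probe was larger among hSRY-ON than among hSRY-OFF arrays for 17 of the 19 sterol probes and for 31 of the 42 member probes, compared with 8404 of all 14215.

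**Figure D3:**
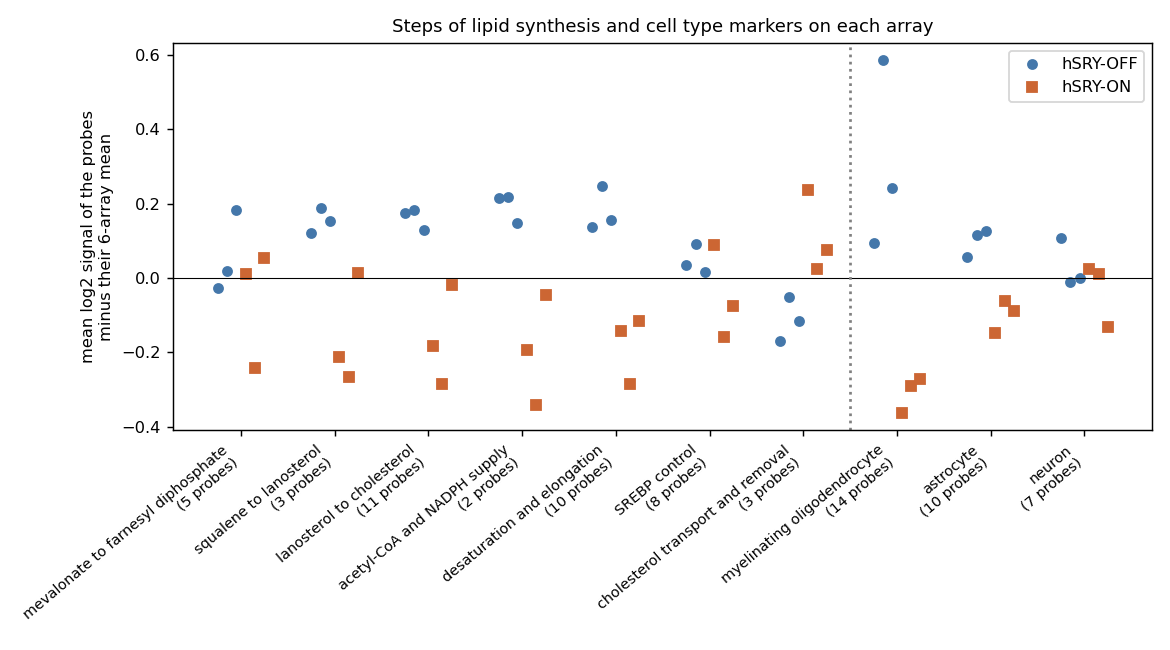
Mean log2 signal over the tested probes of each step or marker list on each array, minus the mean of the same probes over all 6 arrays (y axis), with the number of probes under each name, hSRY-OFF as circles and hSRY-ON as squares. The 2 groups separate at the squalene, lanosterol, acetyl-CoA supply and desaturation steps and in the myelinating oligodendrocyte and astrocyte markers, with hSRY-ON below, and they overlap at the mevalonate step, in the SREBP control genes and in the neuron markers, while the 3 transport probes separate the other way through Abcg1.

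The genes of SREBP control did not move as a block. Of 8 tested probes, 4 were lower and 4 higher, with a median log2 fold change of -0.02. Srebf1, which encodes SREBP-1, the form that mainly drives fatty acid genes, fell. It read 6.78, 6.87 and 6.70 in hSRY-OFF and 6.25, 5.75 and 5.85 in hSRY-ON. Its groups were well apart, with a log2 fold change of -0.83 ± 0.14 (SE, n = 3 each, adjusted p = 0.0386). The probe was dim though detected on all 6 arrays. Its log2 fold change was -0.29 without background correction and -0.48 with normexp fitted on the signals and offset 50, and with no filter on dim probes its adjusted p was 0.0574. Its adjusted p was 0.110, 0.123 and 0.104 without hSRY-OFF arrays 1, 2 and 3 and 0.0740, 0.0843 and 0.0614 without hSRY-ON arrays 1, 2 and 3. The second Srebf1 probe lay below background on every array.

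Srebf2 encodes SREBP-2, the form that mainly drives sterol genes. Its probe read 9.97, 9.99 and 9.91 in hSRY-OFF and 9.65, 9.64 and 9.73 in hSRY-ON. The groups did not overlap, and they differed by -0.28 ± 0.076 (log2, SE, adjusted p = 0.100). Scap, the escort protein, read 8.98, 8.93 and 8.56 in hSRY-OFF and 9.14, 9.10 and 8.82 in hSRY-ON. These values overlapped, and the log2 difference was 0.20 ± 0.14 (SE, adjusted p = 0.475), or 0.067 without hSRY-OFF array 3. Insig1, itself a target of SREBP, read 9.73, 9.84 and 9.88 in hSRY-OFF and 9.71, 9.49 and 9.91 in hSRY-ON on its brightest probe, with the highest value of all in an hSRY-ON brain. The 3 tested Insig1 probes lay on both sides of 0, at -0.12, -0.06 and 0.19, and the brightest was at -0.0098 without hSRY-ON array 2 and at -0.22 without hSRY-ON array 3. Insig2 read 8.86, 8.99 and 8.77 in hSRY-OFF and 8.995, 8.89 and 8.79 in hSRY-ON on its brighter probe. The groups were interleaved, at a log2 difference of 0.022 ± 0.096 (SE, adjusted p = 0.923). Its sign turned without hSRY-OFF array 3 and without hSRY-ON array 1, to -0.03 each time, and it was 0.080 without hSRY-OFF array 2 and 0.072 without hSRY-ON array 3.

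Among the genes that move or remove cholesterol, Abcg1 rose. This exporter passes cholesterol to lipoprotein particles. Its probe read 6.97, 6.94 and 6.96 in hSRY-OFF and 7.81, 7.78 and 7.75 in hSRY-ON, so the arrays of each group were tight and the groups far apart. The log2 difference was 0.82 ± 0.071 (SE, n = 3 each, adjusted p = 0.0225), or 0.43 without background correction. The adjusted p was 0.0921, 0.105 and 0.0696 without hSRY-OFF arrays 1, 2 and 3, 0.0740 and 0.0614 without hSRY-ON arrays 1 and 2, and 0.0183 without hSRY-ON array 3. Stard4, a soluble sterol carrier and SREBP target, read 8.77, 8.72 and 8.68 in hSRY-OFF and 8.91, 8.17 and 8.49 in hSRY-ON. Its hSRY-ON arrays lay on both sides of the hSRY-OFF arrays (log2 fold change -0.20 ± 0.18, SE, adjusted p = 0.557), and leaving out hSRY-ON array 1 or 2 moved the value to -0.39 or -0.026, respectively. Cyp46a1, the neuronal hydroxylase that makes the form of cholesterol that leaves the brain, had a log2 fold change of 0.05. The probe of Abca1, a second exporter, lay below background on all arrays. The linear signals of the 3 tested transport probes, summed, overlapped between the groups, at 799 to 865 in hSRY-OFF and 814 to 985 in hSRY-ON.

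**Figure D4:**
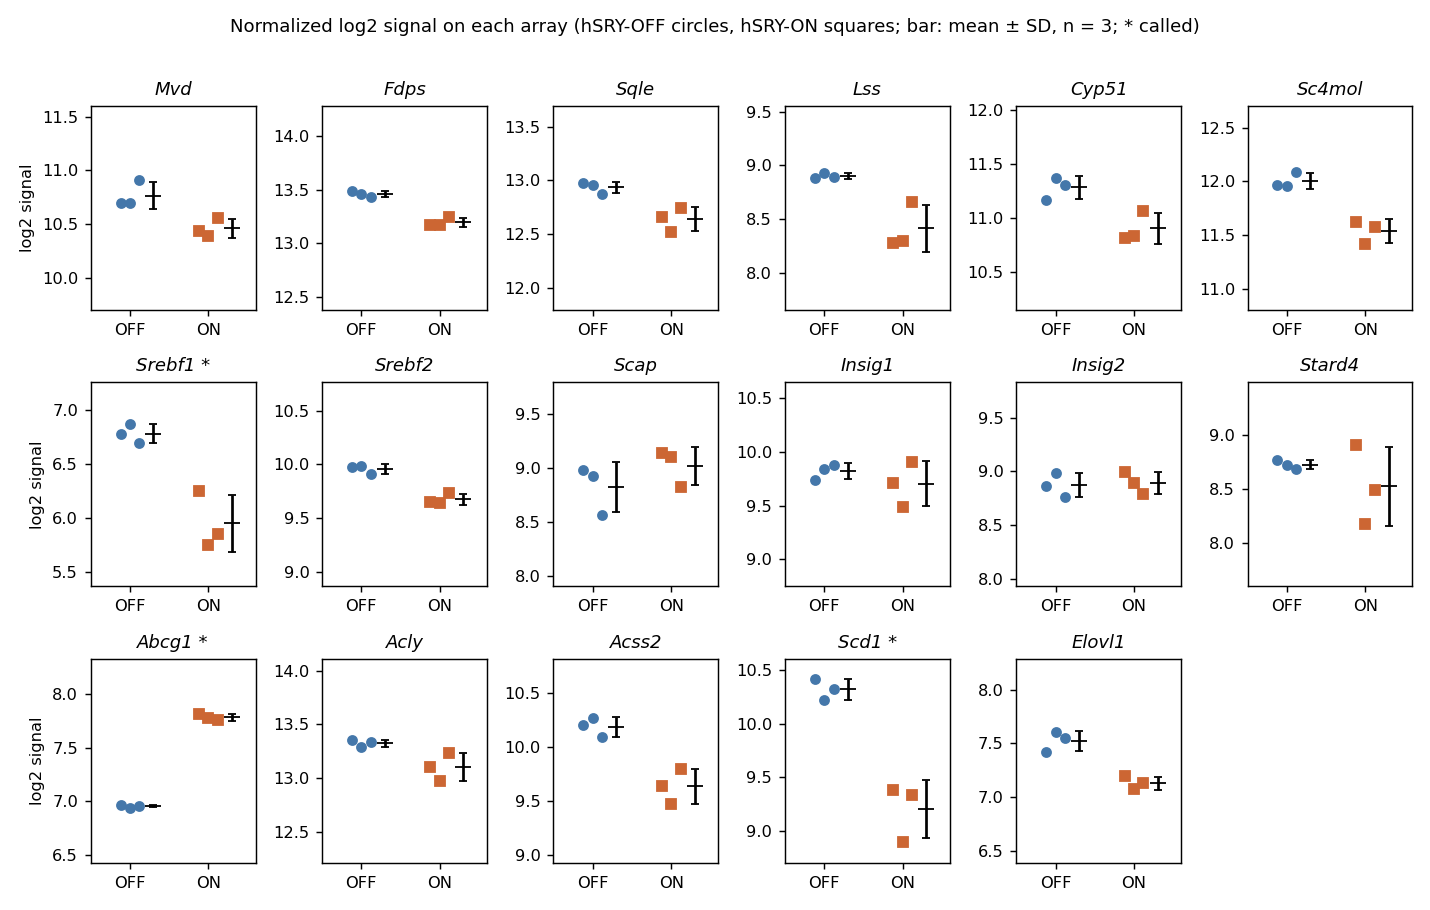
Normalized log2 signal (y axis, each panel spanning the same range) of 17 probes on every array, hSRY-OFF circles and hSRY-ON squares, with the mean ± SD of 3 arrays beside them and an asterisk for a called probe. Scd1, Srebf1 and Abcg1 show the widest gaps, the sterol enzymes show smaller gaps with hSRY-ON below, and Scap, Insig1, Insig2 and Stard4 overlap.

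Among the genes that supply, elongate and desaturate fatty acids, all 12 tested probes of 9 symbols had a lower mean in hSRY-ON. Of these, 9 were at an unadjusted p under 0.05 (10.9% of all tested probes were so and lower). There were 9 without overlap (14.2% of all were so and lower), and 1 was called (2.17% of all, in either direction). The median log2 fold change was -0.27. On each hSRY-ON array all 12 probes lay below their hSRY-OFF mean, with median deviations of -0.28, -0.37 and -0.23 on arrays 1 to 3. The committed steps were hardly measured, because Acaca had no probe under that symbol and Fasn, the fatty acid synthase, was detected on 2 arrays, 1 of each group.

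Cytosolic acetyl-CoA is supplied from citrate by Acly and from acetate by Acss2. Acss2 read 10.20, 10.27 and 10.09 in hSRY-OFF and 9.64, 9.47 and 9.80 in hSRY-ON. The groups were separate, and the log2 fold change of -0.55 ± 0.11 (SE) had an adjusted p of 0.0513. Acly read 13.35, 13.29 and 13.34 in hSRY-OFF and 13.11, 12.97 and 13.24 in hSRY-ON. It too did not overlap, with hSRY-ON array 3 close to the hSRY-OFF arrays (log2 fold change -0.22 ± 0.092, SE, adjusted p = 0.229). A second Acss2 probe was detected on 1 array, from an hSRY-OFF brain, and was not tested.

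Desaturases and elongases shape the acyl chains of membrane lipid. Scd1, a stearoyl-CoA desaturase that makes oleate, showed the lowest log2 fold change of the 42 probes and fell. It read 10.41, 10.23 and 10.32 in hSRY-OFF and 9.38, 8.90 and 9.34 in hSRY-ON. The lowest hSRY-OFF array was above the highest hSRY-ON array, and the log2 fold change was -1.11 ± 0.14 (SE, n = 3 each, adjusted p = 0.0263). The adjusted p was 0.0921, 0.109 and 0.0896 without hSRY-OFF arrays 1, 2 and 3, 0.0740 and 0.0614 without hSRY-ON arrays 1 and 2, and 0.0294 without hSRY-ON array 3. Scd2, the desaturase that predominates in brain, had a log2 fold change of -0.53 (adjusted p = 0.0853). Elovl1, an elongase of the very long saturated chains found in sphingolipids, was read by 4 probes, all lower, from -0.39 to -0.22. Its probe with the lowest p read 7.42, 7.60 and 7.55 in hSRY-OFF and 7.19, 7.07 and 7.13 in hSRY-ON, again with no overlap (log2 fold change -0.39 ± 0.085, SE, adjusted p = 0.0641), and it was at -0.20 without background correction. Fads2 and Fads1, the desaturases of polyunsaturated chains, were at -0.28 and -0.10, and the elongases Elovl5 and Elovl6 at -0.26 and -0.20.

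Further lipid genes were taken as a list of 44 symbols, of which 33 were tested with 55 probes. They did not share the downward shift, with 32 probes lower, 23 higher and a median log2 fold change of -0.03. Fa2h and Ugt8a, which make the hydroxylated galactolipids of myelin, fell, with log2 fold changes of -0.96 and -0.78 (adjusted p = 0.0263 and 0.0396). Vldlr, a receptor for lipoproteins and reelin, had 4 probes detected in both groups, all with a higher mean in hSRY-ON. The dimmest of these, detected on 5 arrays, was called at 0.84 (adjusted p = 0.0321), and the 3 brighter ones were at 0.34 to 0.38 and were not called. A further Vldlr probe was detected on the 3 hSRY-ON arrays alone and passed the detection filter only through the group where it was higher, so its call is not counted as support. The 5 other genes of sterol and ketone metabolism in that list had 10 probes, 8 lower and 2 higher, with none called.

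Markers of myelinating cells also had lower levels in hSRY-ON. Of 14 tested probes of myelinating oligodendrocyte markers, 13 were lower and 2, both of Mobp, a structural gene of myelin, were called, against 48.9% lower and 2.17% called of all tested probes, as for the lists that follow. The summed signal of this list was 35041 to 45264 in hSRY-OFF and 27387 to 28006 in hSRY-ON, without overlap. Of the later markers, Opalin was detected on 1 array and Aspa and Ermn on none. Oligodendrocyte precursor markers summed to 11741 to 12300 in hSRY-OFF and 9618 to 10028 in hSRY-ON, with 4 of 5 probes lower and Gpr17, a receptor of differentiating precursors, called at -0.73 (adjusted p = 0.0263). Pdgfra, the receptor that defines these precursors, was the probe on the higher side, at 0.19 (adjusted p = 0.254) with every hSRY-ON array above every hSRY-OFF array. Astrocyte markers summed to 44919 to 45238 in hSRY-OFF and 43534 to 49548 in hSRY-ON, and its probes differed in direction, 6 of 10 lower and 4 higher. Gfap at -0.83 and Aqp4 at -0.81 were called. On the higher side, Gjb6 was at 0.46 (adjusted p = 0.102) and Aldoc at 0.28 (adjusted p = 0.105), neither called and both with every hSRY-ON array above every hSRY-OFF array, and Slc1a3 was at 0.03. The part of these cell types in the sterol and fatty acid differences was not tested. Endothelial markers summed to 5067 to 5599 and 3796 to 4587 in the same order of groups, with 3 of 5 probes lower and 2 higher. Cldn5, the brightest of them, was at -0.42 (adjusted p = 0.126). Flt1 was at 0.49 (adjusted p = 0.131), with every hSRY-ON array above every hSRY-OFF array. Erythroid markers summed to 32484 to 36940 and 29080 to 36357. No probe of the endothelial or erythroid list was called. Of the liver markers, Alb, Cyp7a1 and Serpina1a were detected on no array, Ttr, which choroid plexus also makes, was at 0.37, and Apoa1 rose by 1.08 on the log2 scale (adjusted p = 0.0225).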

How the data were processed

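Per the labels, total RNA was extracted from whole brain, labelled with biotin and hybridized to 6 Illumina MouseRef-8 v2.0 arrays. The authors deposited a mean bead intensity for each probe and array, neither background corrected as far as stated nor quantile normalized, beside a detection p-value. The submitters' processing notes name limma and the study's methods name TCC, without settings.

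The deposited intensities were corrected in R 4.3.3 with limma 3.58.1 (normexp with 798 negative controls inferred from the detection p-values, offset 16), quantile normalized and put on the log2 scale. Dim probes become more variable under this correction. Testing was limited to probes detected (p-value under 0.05) on 3 or more of the 6 arrays, with lmFit and eBayes (two-sided), and p-values were adjusted over all 14215 tested probes (Benjamini-Hochberg). A probe was called at an adjusted p under 0.05. All adjusted p-values for probes are from this limma fit unless a setting is named. Summed signals are sums of normalized linear signals over tested probes.

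Groups and replicate numbers follow the labels. The study describes the samples as biological replicates. With 3 arrays a group, their number limits the precision. The labels give no batch. The study does not state the litters of the array mice or the dams of the hSRY-OFF mice. Litter and dam therefore cannot be told apart from the group here. The member genes, other lists, tests and alternatives were chosen with earlier results of these data known. Named probes were those called, the 2 with the lowest p in each step, and the brightest probe of each SREBP control gene. Genes outside this rule, among them Gjb6, Aldoc, Slc1a3, Pdgfra, Cldn5 and Flt1, are named for ranges, for a direction or for brightness. They were chosen after their values were seen. Promoters came from RefSeq (GRCm38.p6), matched by symbol for 39 members and by synonym for 1. On simulated data of this comparison with 14855 tested probes, 145 of 200 probes changed by 1 log2 unit were recovered (72.5%), with 7 false calls. The changed probes were drawn from those well above background, and the change was larger than most reported here. Recovery of smaller changes or of dimmer probes was not simulated. The alternatives were other background corrections, normalizations, filters and spread models, a replicate block, 1 probe per symbol, leaving out each array and counting Me1 under Mod1, of which the last was added after seeing the data. Figures were drawn with matplotlib 3.10.9.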

Additional observations from a re-analysis of the deposited data

How the results depend on the processing

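The number of called member probes, 3 as reported, changed along with the share of all tested probes called. It was 17 without background correction (9.26% of all), 9 with normexp fitted on the signals and offset 50 (6.05%), 7 with a detection p under 0.01 on all 6 arrays (6.07%), 19 with the trend and robust prior (10.2%), 6 with array quality weights (3.38%) and 5 with 1 probe per symbol (3.56%), while it was 4 with median scaling (2.34%) and with cyclic loess (2.38%) and 2 with no filter on dim probes (0.479%), where Srebf1 lost its call. It was 0 to 5 when 1 array was left out, where 0 to 417 of all probes were called. With the replicate block 0 member probes and 0 of all probes were called in limma, while 19 members had an unadjusted p under 0.05 (20.4% of all probes). Same-numbered arrays correlated at 0.040, 0.029 and 0.025 in their deviations from the group means, each best with its own number. Arrays of unlike number correlated at -0.023 to -0.0054. These small values do not settle whether the numbers mark pairs, and the main fit did not use the numbers. The count at an unadjusted p under 0.05 ranged from 15 to 25 when 1 array was left out, with 15 without hSRY-OFF array 2, and the share of all probes ranged from 16.01% in that fit to 22.5% without hSRY-ON array 3. The median log2 fold changes stayed within the spread between replicates under the alternatives run, from -0.35 to -0.24 for sterol and from -0.32 to -0.23 for fatty acid enzymes. The Insig2 probe ranged from -0.032 to 0.080 when 1 array was left out and turned sign. Of 270 values of the 17 named probes under alternatives, 214 kept direction and side of the threshold, 34 gained a call, 20 lost it and 2 reversed. Of 42 member probes 36 kept their sign in every setting tested, and the 6 that turned were those of Pmvk, Tm7sf2 and Cyp46a1, 1 of Insig1 and 2 of Insig2. Apart from settings that leave out arrays or change the filter, the cause of these changes was not tested. Me1, counted under Mod1, added no tested probe. Probes near background are limited by the signal over background, and their fold changes depend on its correction.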
